A study of Mus musculus with 39 samples.

Results

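Mpg, Rhbdf1, Snrnp25 and Il9r are the 4 protein-coding genes that lie next to each other upstream of the mouse α-globin cluster on chromosome 11, at lower coordinates than the gene Nprl3, whose far end Mpg overlaps. They were chosen by position, as the DpnII restriction fragments that overlap each gene in build mm9, without the fragments within 1 kb of a viewpoint captured in the same experiment. These are 4 of the 2953 genes annotated on chromosome 11 and 89 of its 295448 DpnII fragments, with 14 fragments over Mpg, 37 over Rhbdf1, 10 over Snrnp25 and 28 over Il9r. The measurement is NG Capture-C, in which crosslinked chromatin is cut with DpnII and religated, so that each sequenced junction joins a captured fragment, the viewpoint, to another fragment that lay near it in the nucleus. The level of a gene is its number of interactions per kb of counted fragments per 100000 interactions of that viewpoint on chromosome 11, called normalised interactions per kb from here on.

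Mpg encodes N-methylpurine DNA glycosylase, which opens base excision repair by removing alkylated purines. Rhbdf1 encodes iRhom1, a rhomboid-like membrane protein without protease activity. Snrnp25 encodes a protein of the U11/U12 snRNP of the minor spliceosome, and Il9r the receptor chain for interleukin-9. The conserved α-globin enhancers, among them MCS-R1 and MCS-R2, sit in and around the introns of Nprl3, between these genes and the globin genes. CTCF sites flank the region, and such sites are known to limit which genes an enhancer reaches: deletion of the upstream CTCF sites is known to let the α-globin enhancers raise the transcription of Mpg, Rhbdf1 and Snrnp25 in erythroid cells. All 4 genes therefore lie just beyond one edge of the α-globin interaction domain.

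The study asked how the α-globin domain forms and what its chromatin contacts depend on. Viewpoints were the α-globin promoters Hba-1 and Hba-2 (averaged as Hba1/2), the enhancers MCS-R1 and MCS-R2 (averaged as R1/R2), the upstream CTCF site HS39.5 and the downstream CTCF sites at +44 and +48 kb (the latter averaged), and fragments at the centres of 4 FISH probes: E between the enhancers, A just beyond Hba-2, and C and Cx further downstream. There were 39 libraries in 13 groups. Wild-type erythroblasts (MFL) were grown from mid-gestation foetal livers and taken at 0 h or after 30 h of differentiation, with 3 biological replicates at each time from Hba1/2 and HS39.5, and 3 replicates each for R1/R2 and for the FISH probes at 30 h. The time field of the 3 MFL R1/R2 libraries reads 0 h whereas their description reads 30 h, and they are treated as 30 h here. Mouse embryonic stem cells (mES) of the E14 line, strain 129/Ola, had 3 replicates in each of the R1/R2 and FISH probe experiments, and all come from a single line. DKO erythroblasts are homozygous for deletion of MCS-R1 and MCS-R2 and were compared with WT erythroblasts, both at 30 h with 3 replicates. AMKO erythroblasts are homozygous for a deletion of both α-globin genes and had 1 library from R1/R2, as did their WT. Untreated cells, cells given DMSO and cells given DRB, an inhibitor of transcription elongation, for 3 h had 1 library each from Hba1/2, all WT MFL at 30 h. The labels give strain C57Bl6 for all foetal liver groups and the study's methods a mixed background. Cell type and strain cannot be told apart in the comparisons of MFL with mES.

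Each viewpoint of each library held 2287 to 188599 reporter reads, of which 49.8 to 88.2% were on chromosome 11. The shallowest were 30 h libraries from Hba1/2. Low read counts per replicate in MFL included 12 to 23 for Mpg from Cx. Snrnp25 had 15 to 61 from R2, 18 to 89 from R1 and 19 to 60 from Cx. Depth differed with cell type: from R1 and R2, MFL held 5332 to 16459 reporter reads and mES 31013 to 46510. From A the first technical replicates held 6642 to 16025 in MFL, and 134543 and 147605 in mES replicates 2 and 3. A single read thus weighs more in MFL, and the effect of depth on medians over all genes was not tested. Contact data hold no expression, so the cell types could not be checked by marker genes. The genotypes were visible: from Hba1/2 the MCS-R2 fragment had 0, 0 and 5 reads in DKO against 364 to 451 in WT, and the MCS-R1 fragment 48 to 72 reads against 263 to 360. In AMKO the interval between the Hba-1 and Hba-2 fragments had 737 interactions per 100000 from R1/R2 against 9459 in WT. In the FISH probe panel Mpg was counted over 9 of its 14 fragments, since the probe Ex viewpoint overlaps its end, so its level is not comparable with that of the other panels. All 4 genes passed the filter on low values in every comparison. The samples of a group are biological replicates according to the labels, without a statement of which embryos were pooled, so p-values measure the spread between these samples.

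The start regions of the genes differed in base composition, and 3 of them are shown because they span the range from many to few CG dinucleotides. The 200 bases before each annotated start (mm9, written 5′ to 3′ on the strand of the gene, CG dinucleotides in capitals) were as follows.
Rhbdf1 (minus strand, chr11:32122301-32122500): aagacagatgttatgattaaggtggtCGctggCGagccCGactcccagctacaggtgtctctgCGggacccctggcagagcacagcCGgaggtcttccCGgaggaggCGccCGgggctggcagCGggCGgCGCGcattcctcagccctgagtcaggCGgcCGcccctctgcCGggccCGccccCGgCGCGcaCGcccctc
Snrnp25 (plus strand, chr11:32105215-32105414): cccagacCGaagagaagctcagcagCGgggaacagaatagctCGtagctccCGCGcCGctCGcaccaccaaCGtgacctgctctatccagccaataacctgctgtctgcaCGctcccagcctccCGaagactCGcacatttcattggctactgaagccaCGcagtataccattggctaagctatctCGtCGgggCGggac
Il9r (minus strand, chr11:32100280-32100479): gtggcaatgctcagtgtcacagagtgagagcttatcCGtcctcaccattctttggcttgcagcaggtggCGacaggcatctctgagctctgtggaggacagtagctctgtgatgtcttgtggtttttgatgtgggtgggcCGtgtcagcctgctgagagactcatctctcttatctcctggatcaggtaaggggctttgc
Rhbdf1 had 20 CG dinucleotides in this window, Snrnp25 15 and Il9r 3, and Mpg, whose window lies in Nprl3, had 12, against a median of 9 over 1653 protein-coding genes of chromosome 11. The GC box letters GGGCGG, on either strand, occurred 3 times each before Mpg and Rhbdf1, 1 time before Snrnp25 and not before Il9r, and 39.02% of those 1653 windows held at least 1. The letters TATAAA occurred in none of the 4.

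In MFL at 30 h all 4 genes were in contact with the α-globin promoters, and the order of the genes followed distance only in part. Mpg ends 50.3 kb from the Hba-1 fragment, Rhbdf1 60.7 kb, Snrnp25 74.0 kb and Il9r 82.7 kb. From Hba1/2 the level of Mpg was 132, 203 and 165 normalised interactions per kb in replicates 1, 2 and 3, a mean of 167 ± 35.5 (SD, n = 3). Rhbdf1 had 99.5, 111 and 154.5 and Snrnp25 104, 131 and 149, so that Rhbdf1 (122 ± 29.1) and Snrnp25 (128 ± 22.6) overlapped. Il9r had 66.7, 85.0 and 86.6 (79.4 ± 11.1) and was the lowest of the 4 in every replicate. The deeper WT libraries of the DKO experiment gave 172 ± 3.39 for Mpg, 149 ± 1.79 for Rhbdf1, 152 ± 0.682 for Snrnp25 and 89.3 ± 8.61 for Il9r. The level of Mpg there was 1.93 ± 0.158 times that of Il9r, whereas Snrnp25 was only 1.02 ± 0.0150 times as high as Rhbdf1, although above it in all 3 replicates.

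The CTCF sites gave another order. From HS39.5, which lies only 4.5 kb from Mpg, the WT level was 1205 ± 104 for Mpg, 672 ± 27.3 for Rhbdf1, 445 ± 38.9 for Snrnp25 and 238 ± 13.3 for Il9r, in the order of distance and without overlap between neighbouring genes among the WT replicates or among the DKO replicates. From +44/+48, on the far side of the globin genes, Rhbdf1 was the highest gene in every replicate, at 391, 393 and 385 normalised interactions per kb in WT. Snrnp25 followed at 288, 301 and 313, then Mpg at 215, 258 and 216, and Il9r at 225, 212 and 216. Mpg, the nearest gene, thus had 0.589 ± 0.0581 times the level of Rhbdf1, and its values overlapped those of Il9r, the farthest gene. From this viewpoint the Rhbdf1 level was also above its level from Hba1/2, although +44 is 98.6 kb from Rhbdf1 and Hba-1 is 60.7 kb from it. Levels are shares of each viewpoint's own total on chromosome 11. Differences between viewpoints, here and below, are therefore not differences in absolute contact.

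**Figure D1:**
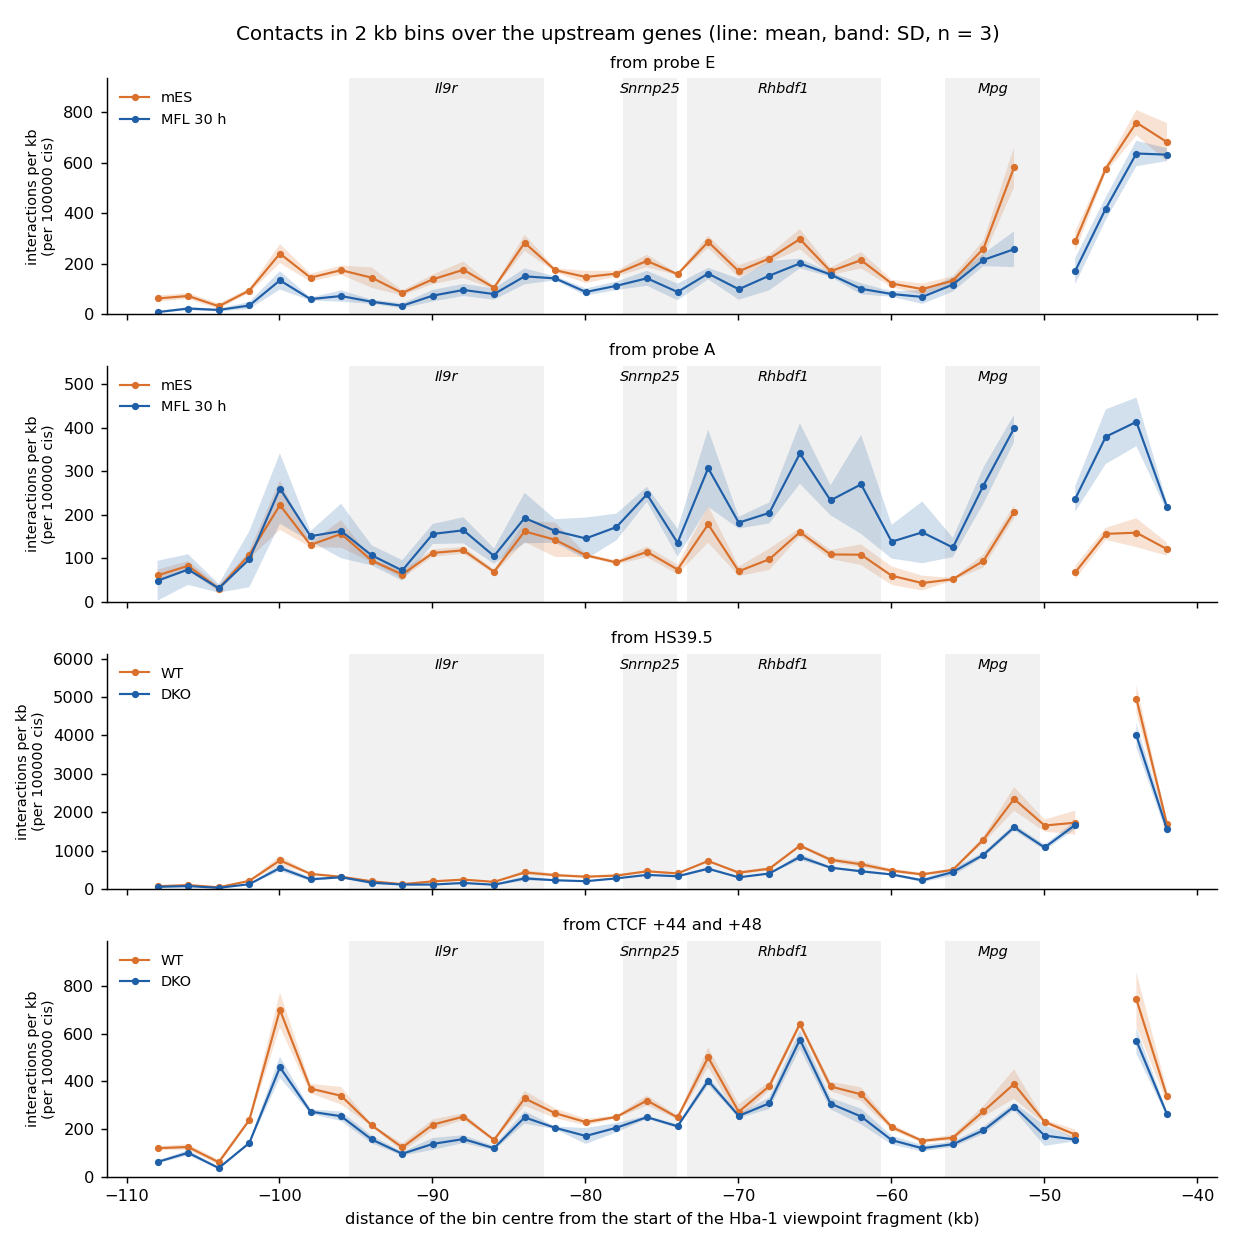
Normalised interactions per kb in 2 kb bins across Il9r, Snrnp25, Rhbdf1 and Mpg, plotted by distance from the Hba-1 fragment in kb, for MFL and mES from probes E and A and for WT and DKO from HS39.5 and +44/+48 (lines are means, bands are the SD, n = 3). From A the MFL line lies above the mES line over Mpg, Rhbdf1 and Snrnp25 (gene means 215, 235 and 196 against 86.3, 110.5 and 106), and from E the MFL line lies below for most bins.

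The contacts on this side of the cluster were set against intervals of equal length at the same distance on the other side of each viewpoint. From Hba1/2 in WT the gene level was 8.01 ± 0.887 times its mirror interval for Mpg, 12.53 ± 0.859 for Rhbdf1, 18.7 ± 2.22 for Snrnp25 and 11.6 ± 1.29 for Il9r. From +44/+48 the ratio was 8.57 ± 0.268 for Mpg, 20.6 ± 0.674 for Rhbdf1, 10.6 ± 1.01 for Snrnp25 and 6.16 ± 0.349 for Il9r. All 4 genes were therefore contacted more often than equally distant sequence downstream, from both sets of viewpoints and in all 3 WT replicates.

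**Figure D2:**
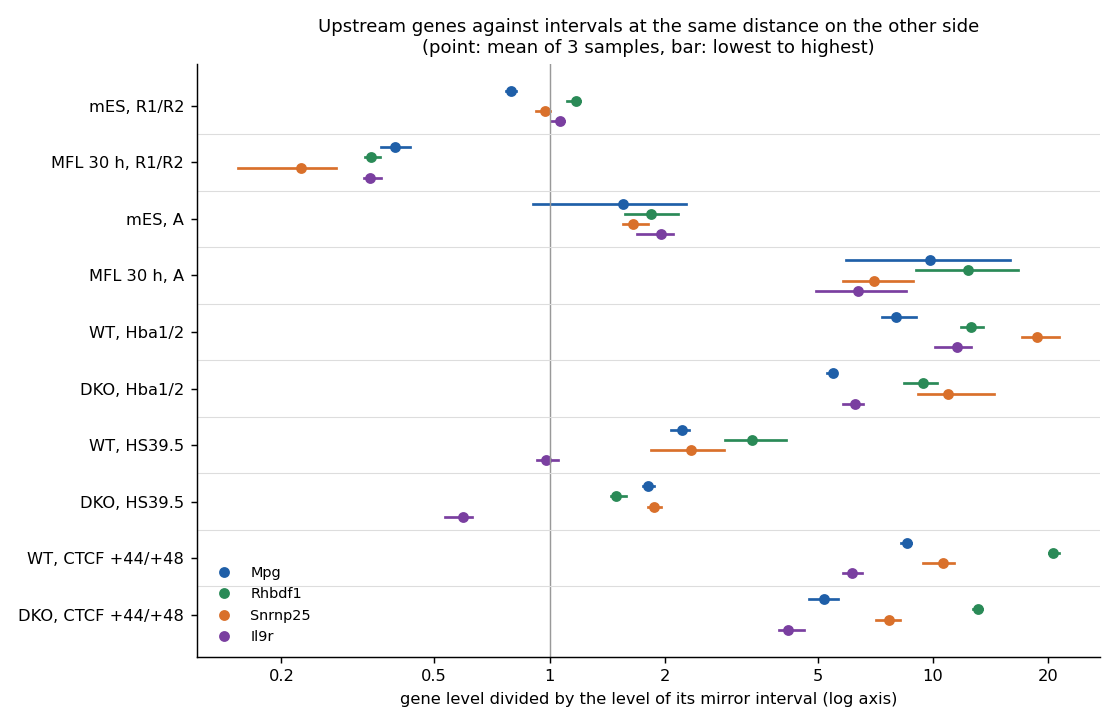
Ratio of each gene's normalised interactions per kb to that of the interval at the same distance on the other side of the viewpoint, on a log axis (points are means of 3 samples, bars run from the lowest to the highest). From R1/R2 the mES values lie near 1 and the MFL values below 1, and from A the MFL samples lie between 4.96 and 16.6 and the mES samples between 0.907 and 2.27. From HS39.5 the mirror interval of Mpg spans the MCS-R1 fragment, which is affected by the deletion in DKO. Those of the other genes begin beyond the MCS-R2 fragment.

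The comparison of 30 h with 0 h asked whether contacts changed while α-globin transcription rose. From Hba1/2 the 0 h levels were 210.3, 154 and 165 for Mpg, 137, 151 and 156 for Rhbdf1, 149.6, 179.8 and 156 for Snrnp25 and 99.5, 68.8 and 91.0 for Il9r. Only Snrnp25 had no overlap with its 30 h values, all 3 of which were lower (exact permutation p = 0.1, the smallest that 3 samples against 3 can give). The share of all genes without overlap between groups was not counted, here or in the comparisons below. A lack of overlap therefore only describes the samples. None of the 4 genes passed the test (limma, adjusted p = 0.527 to 0.937), where 1.59% of 503 genes did, and 1 of the 4 had an unadjusted p below 0.05. edgeR and DESeq2 on recovered reads called none of the 4 either. With the total limited to 500 kb Rhbdf1 passed as lower at 30 h (log2 difference -0.53, limma adjusted p = 0.00633). The log2 difference (30 h minus 0 h) was -0.09 ± 0.18 (SE) for Mpg, -0.305 ± 0.135 for Rhbdf1, -0.35 ± 0.26 for Snrnp25 and -0.11 ± 0.19 for Il9r, beside a median of -0.59 over all genes, and these signs were the opposite under edgeR and DESeq2 for all 4 genes. From HS39.5 the 30 h level was 1081 ± 58.9 against 978 ± 115 at 0 h for Mpg, 643 ± 5.50 against 574 ± 24.3 for Rhbdf1, 381 ± 70.7 against 312 ± 10.9 for Snrnp25 and 221 ± 15.1 against 213 ± 15.9 for Il9r. For Rhbdf1 and Snrnp25 every 30 h value lay above every 0 h value (exact permutation p = 0.1 for each). None of the 4 passed (limma, adjusted p = 0.865 to 0.935; 0.223% of 449 genes did), although 2 had an unadjusted p below 0.05, and edgeR called 0 and DESeq2 2 of them.

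The comparison of erythroblasts with stem cells asked which contacts belong to the active locus. Seen from the enhancers R1/R2, 3 of the 4 genes had fewer contacts in MFL than in mES, where α-globin is silent. Mpg had 184, 219 and 235 normalised interactions per kb in MFL and 302, 279 and 303.5 in mES. Rhbdf1 had 179, 175 and 184 against 276, 253 and 262, and Il9r 85.3, 98.6 and 102 against 157, 147 and 157. Every MFL value of these 3 genes lay below every mES value. Snrnp25 had 113, 199 and 176 in MFL and 223, 199.0 and 237 in mES, with the second replicates almost level. Of the 4 genes 3 passed as lower in MFL, where 18.1% of 415 genes passed in either direction and 5.54% as lower. The log2 differences (MFL minus mES) were -0.48 ± 0.10 (limma, adjusted p = 0.0113) for Mpg, -0.56 ± 0.06 (adjusted p = 0.000417) for Rhbdf1 and -0.695 ± 0.09 (adjusted p = 0.000775) for Il9r. Snrnp25 had -0.47 ± 0.19 and did not pass (limma, adjusted p = 0.12). With the total taken outside the domain Mpg was at -0.25 and no longer passed (limma, adjusted p = 0.137), and Rhbdf1 was at -0.32 and passed (limma, adjusted p = 0.0129). The median over all genes was 0.54, and relative to it the differences were -1.02 for Mpg, -1.10 for Rhbdf1, -1.01 for Snrnp25 and -1.24 for Il9r.

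Probe E, which lies between the enhancers and was captured in separate libraries, gave the same order of cell types. Mpg had 170.1, 154 and 161 normalised interactions per kb in MFL and 252, 208 and 221 in mES. Rhbdf1 had 139, 123 and 142 against 222, 214 and 194, Snrnp25 149.9, 116 and 137 against 210.3, 213 and 186, and Il9r 78.9, 82.7 and 81.6 against 146, 154 and 153. None of the 4 genes overlapped between the cell types, and Il9r was the most separate, with an mES mean of 151 ± 4.17 against 81.1 ± 1.92 in MFL. All 4 passed as lower in MFL, where 20.9% of 364 genes passed in either direction and 11.8% as lower (limma, adjusted p = 0.00972 for Mpg, 7.93e-05 for Rhbdf1, 0.00587 for Snrnp25 and 3.85e-06 for Il9r). The log2 differences were -0.48 ± 0.12 for Mpg, which turned to 0.115 when the total was taken outside the domain only, -0.645 ± 0.09 for Rhbdf1, -0.60 ± 0.135 for Snrnp25 and -0.90 ± 0.09 for Il9r. With that total 1 gene, Il9r, still passed. The median over all genes moved from -0.04 to 0.66 with the same change, and relative to it Mpg was at -0.45 and -0.545, so that the sign relative to other genes did not turn.

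Seen from probe A, at the downstream end of the domain, the difference went the other way for 3 of the genes. Mpg had 202, 206 and 237 normalised interactions per kb in MFL and 99.8, 84.3 and 74.8 in mES, a mean of 215 ± 19.3 against 86.3 ± 12.6 (2.50-fold). Rhbdf1 had 198, 268 and 238.5 against 105, 120.1 and 107 (2.11-fold), and Snrnp25 167, 221 and 200.4 against 107, 101 and 109.8 (1.84-fold). For these 3 genes every MFL value lay above every mES value. Il9r had 133, 99.7 and 149.7 in MFL and 109, 103 and 105 in mES, with the second MFL value below all mES values. The 3 genes Mpg (log2 difference 1.32 ± 0.17, limma adjusted p = 2.05e-06), Rhbdf1 (1.08 ± 0.11, adjusted p = 4.6e-08) and Snrnp25 (0.88 ± 0.18, adjusted p = 0.000694) passed as higher in MFL, where 18.3% of 398 genes passed in either direction and 11.8% as higher. Il9r (0.25 ± 0.13) did not pass (limma, adjusted p = 0.179), and its sign turned with the values as deposited. The median over all genes was 0.61, so relative to it the differences were 0.71 for Mpg, 0.47 for Rhbdf1 and 0.27 for Snrnp25, and -0.36 for Il9r.

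**Figure D3:**
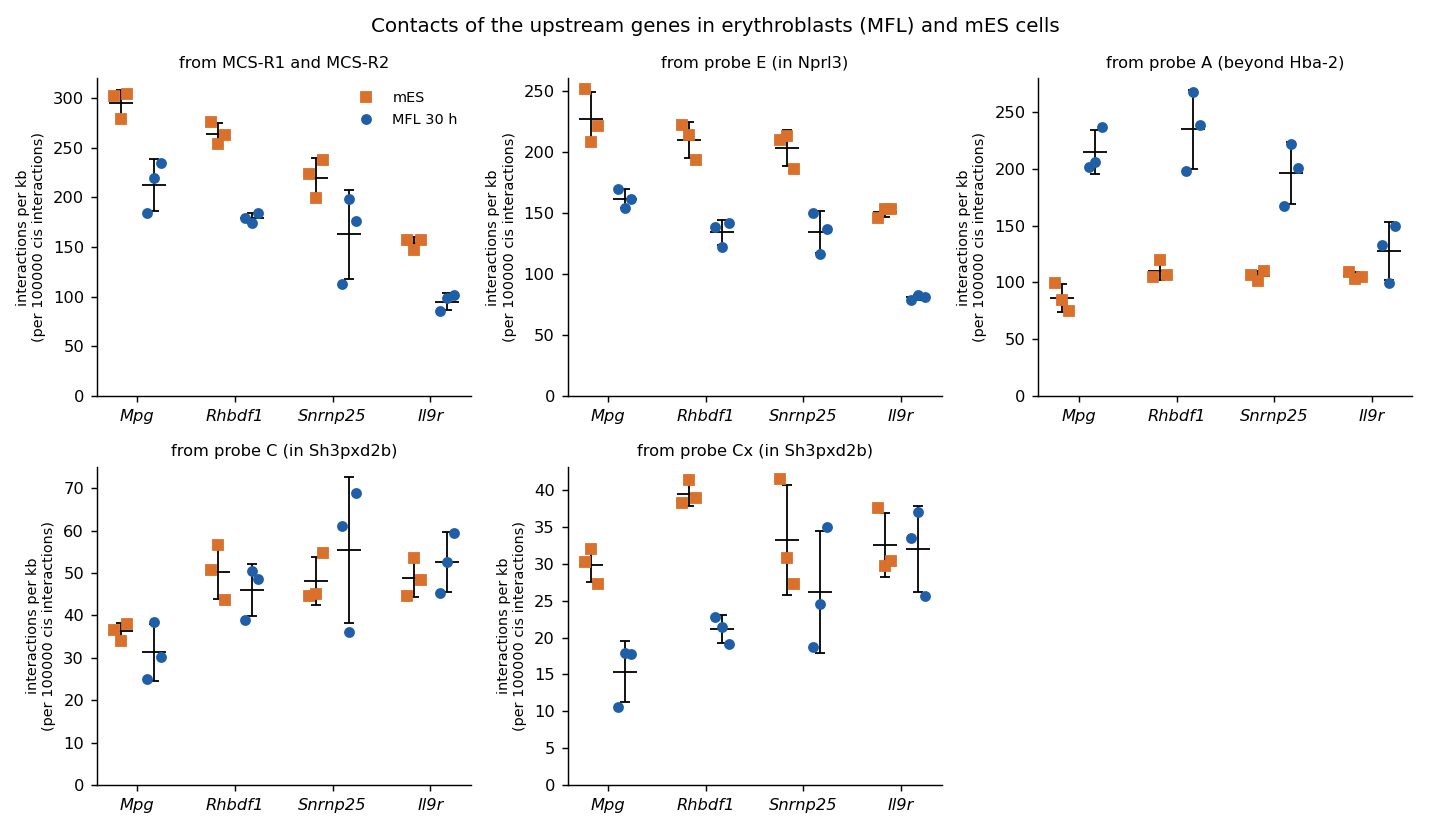
Normalised interactions per kb of Mpg, Rhbdf1, Snrnp25 and Il9r in each MFL and mES sample from R1/R2 and probes E, A, C and Cx (points are samples, black marks the mean and SD, n = 3 per group). From R1/R2 and E the MFL points lie below the mES points, while from A the MFL points of Mpg (202 to 237) lie above the mES points (74.8 to 99.8).

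In these samples the cell types also differed in whether probe A or probe E contacted the genes more, on the cis scale. Within the same MFL libraries the level from A was above the level from E, by 0.245, 0.42 and 0.55 on the log2 scale for Mpg and by 0.51, 1.13 and 0.75 for Rhbdf1. In mES it was below, by values of -1.33, -1.30 and -1.56 for Mpg and -1.085, -0.83 and -0.86 for Rhbdf1. Snrnp25 and Il9r had the same pattern, positive in all 3 MFL samples and negative in all 3 mES samples. The test of this difference between viewpoints gave 1.80 ± 0.42 for Mpg, 1.72 ± 0.44 for Rhbdf1, 1.48 ± 0.45 for Snrnp25 and 1.15 ± 0.435 for Il9r. All 4 had an unadjusted p below 0.05 and none passed after adjustment (limma, adjusted p = 0.153, 0.153, 0.157 and 0.209), where 0.337% of 297 genes passed. Set against its mirror interval, the level from A was 9.84 ± 5.33 times as high for Mpg in MFL and 1.55 ± 0.683 times in mES, whereas the level from E was 0.282 ± 0.0280 times its mirror in MFL and 0.840 ± 0.124 times in mES. From R1/R2 and E the mirror interval of Mpg ends before the Hba-1 fragment, while mirror intervals of other genes run into the α-globin genes.

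The downstream probes C and Cx made few contacts with the genes. From C, 121.3 kb from Mpg, the levels were 25.1, 38.5 and 30.2 in MFL and 36.5, 34.1 and 38.1 in mES for Mpg, and the means for the other genes were 46.0 ± 6.25 against 50.3 ± 6.48 for Rhbdf1, 55.4 ± 17.1 against 48.1 ± 5.72 for Snrnp25 and 52.5 ± 7.07 against 48.8 ± 4.42 for Il9r. The cell types overlapped for all 4 genes and none passed (limma, adjusted p = 0.469 to 0.602, and 0 with an unadjusted p below 0.05), whereas 33.7% of 457 genes did. edgeR and DESeq2, which rescale to the bulk of the genes, called all 4 lower in MFL, whereas with the total limited to 500 kb Snrnp25 (0.625) and Il9r (0.56) passed as higher in MFL (limma, adjusted p = 0.0401 and 0.00417). The median over all genes from C was 0.93, and relative to it the differences were -1.16 for Mpg, -1.06 for Rhbdf1, -0.77 for Snrnp25 and -0.83 for Il9r.

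From Cx, 147.1 kb from Mpg, the level of Mpg was 10.6, 17.9 and 17.7 in MFL and 30.3, 32.0 and 27.3 in mES, and that of Rhbdf1 22.8, 21.5 and 19.2 against 38.2, 41.4 and 38.9. Neither gene overlapped between the cell types. The Mpg level rested on 12 to 23 reads per replicate in MFL and 173 to 248 in mES. Mpg (log2 difference -0.98 ± 0.29, limma adjusted p = 0.00326) and Rhbdf1 (-0.90 ± 0.16, adjusted p = 3.63e-07) passed as lower in MFL, where 40.5% of 459 genes passed in either direction and 5.88% as lower. Snrnp25 (26.1 ± 8.27 against 33.2 ± 7.48) and Il9r (32.0 ± 5.85 against 32.5 ± 4.39) overlapped and did not pass (limma, adjusted p = 0.252 and 0.888), and their log2 differences of -0.37 and -0.03 turned positive, to 0.175 and 0.515, when only cis contacts within 500 kb were used as the total. With that total Il9r passed as higher in MFL (limma, adjusted p = 0.00829) and Mpg, at -0.45, no longer passed as lower (limma, adjusted p = 0.203). In MFL the means from Cx rose from Mpg, the nearest gene, to Il9r, the farthest, but the values of Snrnp25 overlapped those of both Rhbdf1 and Il9r. The comparisons from E, A, C and Cx used the same 3 MFL and 3 mES samples.

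**Figure D4:**
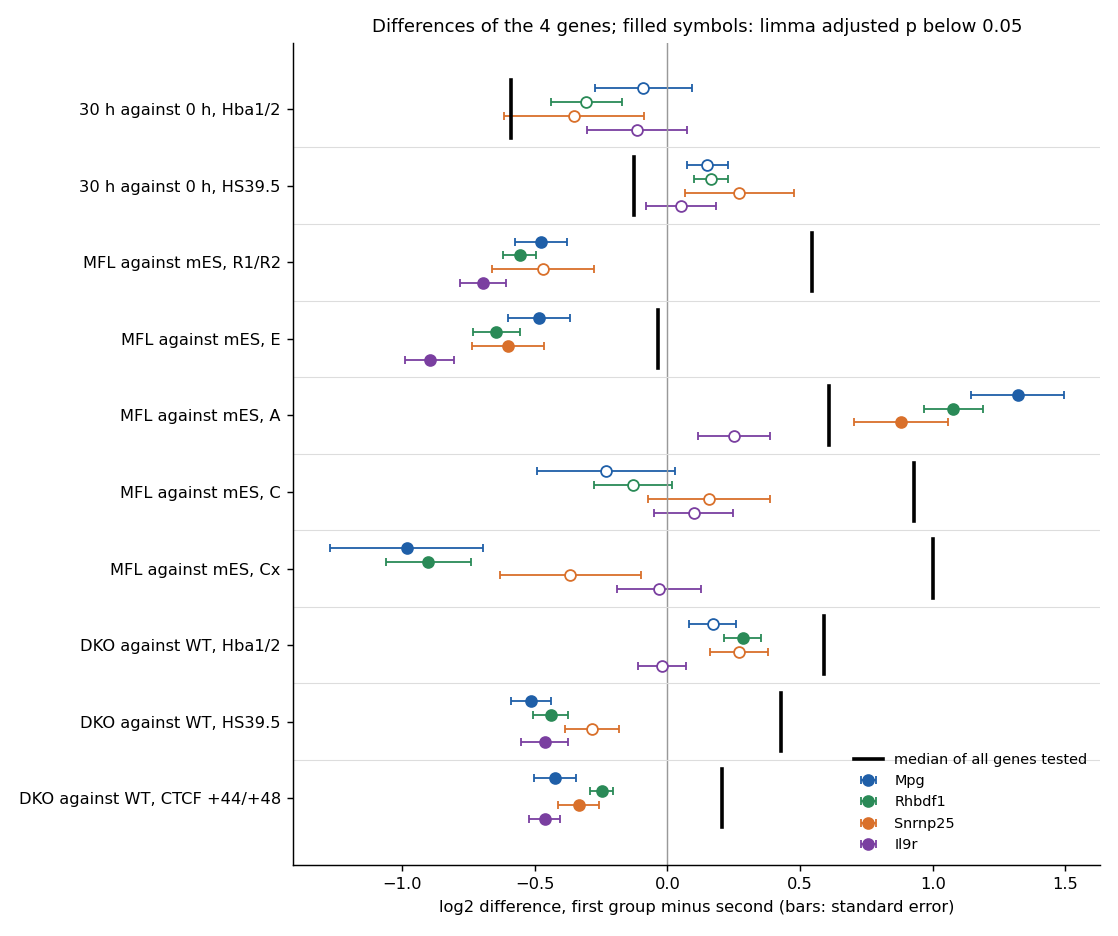
Log2 difference of each gene (first group minus second, bars are SE, filled where the limma adjusted p was below 0.05) in the 10 replicated comparisons, with the median over all genes tested as a black line. Mpg has its highest value from A (1.32) and its lowest from Cx (-0.98); the signs for 30 h against 0 h and for DKO against WT from Hba1/2 turn under other scalings.

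The DKO comparison asked what contacts remain without MCS-R1 and MCS-R2. From the boundary sites 3 of the 4 genes (HS39.5) or all 4 (+44/+48) had fewer contacts in DKO. From HS39.5, Mpg had 828, 850.3 and 845 normalised interactions per kb in DKO and 1087, 1281 and 1246 in WT. Rhbdf1 had 486, 515 and 486 against 702, 663 and 649.9, and Il9r 161, 181 and 177 against 228, 253 and 232. DKO was below WT without overlap for these 3 genes and for Snrnp25, which had 349.6, 384 and 361 against 428, 489.8 and 418. Of the 4 genes 3 passed as lower in DKO, where 2.52% of 397 genes passed in either direction and 1.01% as lower: Mpg (log2 difference -0.51 ± 0.08, limma adjusted p = 0.00149), Rhbdf1 (-0.44 ± 0.07, adjusted p = 0.00149) and Il9r (-0.46 ± 0.09, adjusted p = 0.0149). Snrnp25 (-0.285 ± 0.10) did not pass (limma, adjusted p = 0.174), and with the values as deposited none of the 4 did (limma, adjusted p = 0.0962 to 0.239), with the same signs. With the total limited to 500 kb Il9r, at -0.31, did not pass (limma, adjusted p = 0.0547).

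From +44/+48 all 4 genes were lower in DKO. Mpg had 184, 171 and 158 in DKO and 215, 258 and 216 in WT, and Rhbdf1 334, 327 and 325 against 391, 393 and 385. Snrnp25 had 242, 249 and 225 against 288, 301 and 313, and Il9r 159, 169 and 147 against 225, 212 and 216. None of the genes overlapped between the genotypes, and Rhbdf1 was the highest and Snrnp25 the next in all 6 samples. All 4 passed as lower, where 20.4% of 427 genes passed in either direction and 5.85% as lower. The log2 differences were -0.42 ± 0.08 (limma, adjusted p = 3.15e-05) for Mpg, -0.25 ± 0.04 (adjusted p = 1.46e-05) for Rhbdf1, -0.33 ± 0.08 (adjusted p = 0.000936) for Snrnp25 and -0.46 ± 0.06 (adjusted p = 4.54e-08) for Il9r. All kept their sign under the other scalings, but not every call held. With the total limited to 500 kb Rhbdf1 fell to -0.07 and Snrnp25 to -0.16 and neither passed (limma, adjusted p = 0.286 and 0.166), and with the values as deposited Rhbdf1 did not pass (limma, adjusted p = 0.0605).

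From Hba1/2 the result rested on the scaling. Mpg had 203, 195 and 182 in DKO and 170.1, 175.5 and 169 in WT, Rhbdf1 189, 168 and 189 against 149, 151 and 148, and Snrnp25 187, 170.3 and 194 against 151.5, 152 and 153. The DKO values of these 3 genes were above all WT values. Il9r had 95.1, 81.4 and 87.4 against 89.9, 97.6 and 80.4 and overlapped. Rhbdf1 alone passed (log2 difference 0.28 ± 0.07, limma adjusted p = 0.000829), as higher in DKO, where 23.3% of 477 genes passed in either direction and 21.4% as higher, and its difference turned to -0.19 with the total taken outside the domain, -0.37 under edgeR and -0.395 under DESeq2. edgeR called 3 of the 4 genes and DESeq2 all 4, as lower, and with the total outside the domain Il9r alone passed, as lower (-0.49, limma adjusted p = 0.00116). With the total limited to 500 kb all 4 passed as higher in DKO, at 0.44 for Mpg, 0.56 for Rhbdf1, 0.54 for Snrnp25 and 0.25 for Il9r (limma, adjusted p = 8.29e-08 to 0.0475). The median over all genes was 0.59, and relative to it the differences were -0.42 for Mpg, -0.305 for Rhbdf1, -0.32 for Snrnp25 and -0.61 for Il9r. Over the 5 scalings, the differences relative to the median stayed between -0.64 and -0.25. The ratio to the mirror interval, taken within each library, was 5.47 ± 0.165 in DKO against 8.01 ± 0.887 in WT for Mpg and 9.39 ± 0.920 against 12.53 ± 0.859 for Rhbdf1.

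**Figure D5:**
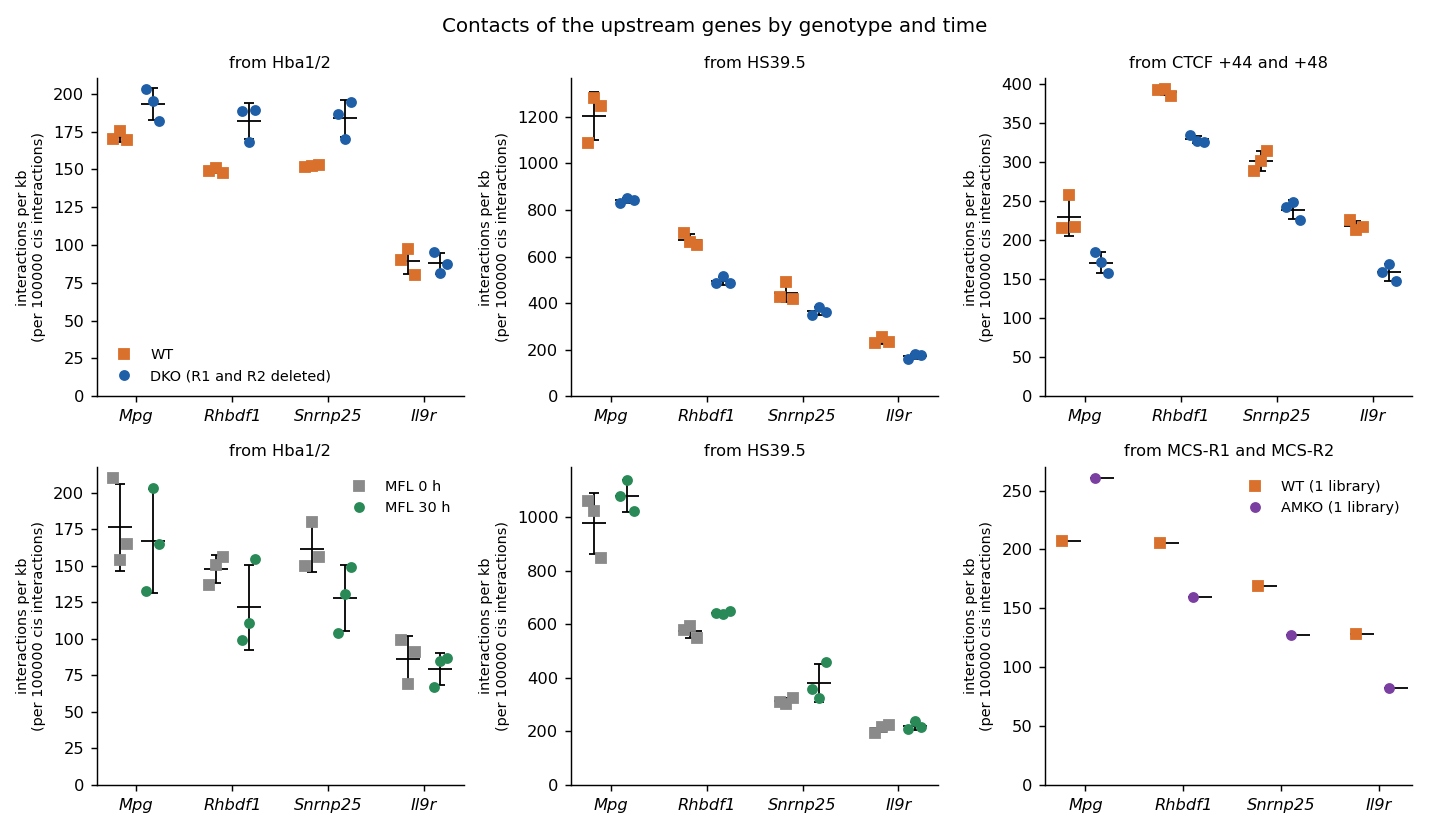
Normalised interactions per kb of the 4 genes in each sample at 0 h and 30 h and in WT and DKO, from Hba1/2, HS39.5 and +44/+48, and in AMKO and its WT from R1/R2 (points are samples, black marks the mean and SD, n = 3 per group except for the single AMKO and WT libraries). From HS39.5 and +44/+48 the DKO points lie below the WT points, as for Il9r from +44/+48 (147 to 169 against 212 to 225); from Hba1/2 the DKO points of Rhbdf1 lie above those of WT on this scale, and this direction turns under other scalings.

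The difference between viewpoints was tested for the DKO as well. The Mpg level from +44/+48 was above that from Hba1/2 in WT, by 0.34, 0.55 and 0.35 on the log2 scale, and below it in DKO, with values of -0.14, -0.19 and -0.21. The other 3 genes were higher from +44/+48 in every sample of both genotypes, and less so in DKO. The tested difference was -0.595 ± 0.275 for Mpg, -0.53 ± 0.27 for Rhbdf1, -0.60 ± 0.28 for Snrnp25 and -0.44 ± 0.29 for Il9r, and none passed (limma, adjusted p = 0.254 to 0.387). Of 373 genes 0.0% passed and 72 had an unadjusted p below 0.05, none of the 4 among them.

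AMKO and its WT had a single library each, so their difference has no replicate check and its intervals cover counting error only. From R1/R2, Mpg had 1303 of 82155 cis reads in AMKO (1.59%, 95% Wilson interval 1.503 to 1.67%) and 731 of 57574 in WT (1.27%, 1.18 to 1.36%). Its level was 261 normalised interactions per kb against 207.5. The other 3 genes were lower in AMKO: Rhbdf1 at 159 against 206, Snrnp25 at 127 against 169 and Il9r at 82.0 against 128. The single WT library was above all 3 wild-type MFL libraries of the R1/R2 comparison with mES for Rhbdf1 (175 to 184) and Il9r (85.3 to 102). It lay within their range for Mpg (184 to 235) and Snrnp25 (113 to 199). On the reads the log2 ratio of AMKO to WT was 0.32 for Mpg (95% exact interval 0.19 to 0.45), -0.35 for Rhbdf1 (-0.45 to -0.25), -0.385 for Snrnp25 (-0.59 to -0.18) and -0.635 for Il9r (-0.77 to -0.50). Mpg thus stood apart from the genes behind it, with a level 1.64 times that of Rhbdf1 in AMKO and 1.01 times in WT, a ratio taken within each library. The sign of Rhbdf1 turned (0.02) when the total was limited to 500 kb around the viewpoints, and that of Mpg was positive under every scaling tried.

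The differences between DRB and DMSO lay within counting error. From Hba1/2, Mpg had 155 normalised interactions per kb with DRB, 177 with DMSO and 179 untreated, and Rhbdf1 183, 175 and 180.0. Snrnp25 had 207, 149.9 and 185 and Il9r 90.0, 99.9 and 88.0. On reads from Hba-1 the log2 ratio of DRB to DMSO was -0.24 for Mpg (95% exact interval -0.80 to 0.34), -0.07 for Rhbdf1 (-0.45 to 0.31), 0.53 for Snrnp25 (-0.18 to 1.285) and -0.38 for Il9r (-0.93 to 0.19). The intervals of DMSO against untreated cells likewise held 0 for all 4 genes, from 72 to 239 reads for Mpg and Rhbdf1 and 39 to 110 for the others.

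Within the genes, differences were spread over several 2 kb bins. From A, 3 of 3 bins of Mpg, 6 of 8 of Rhbdf1 and 2 of 3 of Snrnp25 were higher in MFL and 0 of 8 of Il9r, where 7.67% of 795 bins passed in either direction, as for the shares of bins that follow (limma, adjusted p under the same threshold of 0.05). The bin of Mpg at chr11:32128001-32130000, over its exons and introns and an intron of Nprl3, had 490 ± 76.4 interactions per 100000 in MFL and 172 ± 27.7 in mES (limma, adjusted p = 0.00373). From +44/+48, 3 of 4 bins of Mpg, 5 of 8 of Rhbdf1, 1 of 3 of Snrnp25 and 7 of 8 of Il9r were lower in DKO, where 10.6% of 612 bins passed. The Il9r bin at chr11:32094001-32096000, over coding exons and introns, had 315 ± 32.8 in DKO and 503.5 ± 27.9 in WT (limma, adjusted p = 3.97e-05). From HS39.5 the bin at the Mpg end, chr11:32132001-32134000, had 1653 ± 109 in DKO and 2522 ± 240 in WT (limma, adjusted p = 0.00195). There 3 of 4 bins of Mpg, 5 of 8 of Rhbdf1, 0 of 3 of Snrnp25 and 5 of 8 of Il9r were lower, where 6.99% of 529 bins passed. Bins at the edge of a gene also hold its neighbour, here Nprl3.

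From R1/R2, 13 of the 23 bins of the 4 genes were lower in MFL (26.4% of 694 bins passed), with the smallest adjusted p in the Mpg bin at chr11:32130001-32132000, at 555 ± 55.1 in MFL and 932 ± 24.2 in mES (limma, adjusted p = 0.00154). From E, 16 of 22 were lower (60.4% of 608 bins passed), led by the Il9r bin at chr11:32088001-32090000 over its UTR, at 103 ± 17.9 against 302 ± 84.7 (limma, adjusted p = 0.00201). From Cx, 2 of 3 bins of Mpg and 2 of 8 of Rhbdf1 were lower (21.5% of 893 bins passed). From C no bin of the genes passed (18.2% of 867 did). From Hba1/2 only 2 of 8 bins of Rhbdf1 passed, as higher in DKO on the cis scale (14.7% of 516 bins passed), led by chr11:32110001-32112000 at 431 ± 80.6 against 295 ± 74.4 (limma, adjusted p = 0.0276). No bin of the 4 genes passed for 30 h against 0 h, from Hba1/2 (1.13% of 796 bins passed) or from HS39.5 (0.0833% of 1200).

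In MFL at 30 h from Hba1/2 the signal of the fragment highest per kb was set against that of its gene. It held 1.9% for Mpg, 1.5% for Rhbdf1, 9.7% for Snrnp25 and 3.2% for Il9r. These fragments were short, and the fragment holding the largest share of each gene was not sought. Whether a gene level rested on a single fragment was therefore not tested. From +44/+48 in WT the fragments at the gene starts were not the highest per kb. The start fragment of Rhbdf1 (601 bases, chr11:32122091-32122691) had 187 ± 28.4 normalised interactions per kb and ranked 35 of 37. That of Snrnp25 (611 bases) had 162 ± 10.4 and ranked 9 of 10. The start fragment of Il9r (477 bases) had 222 ± 41.7 and ranked 20 of 28, and that of Mpg (330 bases) had 273 ± 55.4 and ranked 9 of 14. These ranks are per kb, and short fragments led them. The Rhbdf1 start fragment held 252 reads over the 3 replicates, and the highest Rhbdf1 fragment, of 16 bases, held 30, 37 and 31. From A the Mpg start fragment ranked 3 of 9 in MFL, at 444 ± 99.3, and 6 of 9 in mES. The fragments of highest level in MFL at 30 h from Hba1/2 were short and carried few reads. They lay in an intron of Il9r and over an intron and a noncoding exon of Snrnp25, and are printed here (mm9, plus strand) since they are the highest of each gene.
Il9r (57 bases, chr11:32098707-32098763): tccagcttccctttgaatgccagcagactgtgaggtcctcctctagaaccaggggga
Snrnp25 (192 bases, chr11:32106753-32106944): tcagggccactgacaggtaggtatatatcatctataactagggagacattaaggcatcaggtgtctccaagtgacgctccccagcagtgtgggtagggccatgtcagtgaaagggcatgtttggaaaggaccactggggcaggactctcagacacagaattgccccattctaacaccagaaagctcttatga
The Il9r fragment had 564, 631 and 542 normalised interactions per kb on 3, 5 and 7 reads. The Snrnp25 fragment had 66.3, 452 and 278 on 2, 14 and 15 reads, a mean of 265 ± 193. In Mpg and Rhbdf1 the highest fragments were 41 and 16 bases long and held at most 8 and 18 reads in a replicate.

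Letters resembling the core of the CTCF motif (CCA, any 2 bases, AG, any 2 bases, GGC, on either strand) occurred in 4 of the 89 fragments (4.49%) against 3.08% of all fragments of chromosome 11. A match of letters is not a bound site.

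The 4 genes were most like each other. Over the 10 replicated comparisons, the 3 genes nearest in pattern to each of the 4, among 19 protein-coding genes within 1 Mb that were tested throughout, were the other 3, with a mean absolute difference of the log2 values of 0.13 between Mpg and Rhbdf1, 0.16 between Rhbdf1 and Snrnp25, and 0.26 between Snrnp25 and Il9r. These comparisons share samples. The 15 other protein-coding genes within 500 kb differed most from the 4 in the comparison from A. There 9 of the 14 tested were lower in MFL and 2 higher, with a median log2 difference of -0.90, beside 0.98 for the 4 genes and 0.61 for all genes. From R1/R2, E and Cx many neighbours were lower in MFL as well. Of 14 tested, 6, 8 and 12 passed as lower and 5, 6 and 2 as higher. Their medians were -0.25, -1.01 and -0.94, beside -0.52, -0.62 and -0.63 for the 4 genes. Lower contact in MFL from these viewpoints was thus not particular to the 4 genes. From HS39.5 in the DKO comparison none of the 12 tested was lower and 1 was higher, with a median of 0.21, beside -0.45 for the 4 genes and 0.43 for all genes.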

How the data were processed

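The authors trimmed reads with Trim Galore, aligned them to mm9 with Bowtie, per the labels, and deposited, for each DpnII fragment and viewpoint, reads per 100000 reporter reads, a per-million-type unit (RPM scaled to 100000). From 126 of 128 columns whole reads could be recovered (every value within 0.05 reads of a whole number), but not from probe A of mES replicate 1 or Hba-2 of DRB. Values were rescaled to 100000 interactions on chromosome 11, without fragments within 1 kb of a viewpoint, summed over genes, and averaged over both viewpoints of a pair and over runs (chi-square per degree of freedom 0.365 to 1.18) or technical replicates (1.98 to 6.30). Sums with a mean of at least 10 were tested as log2(value + 1) with limma 3.58.1 (R 4.3.3) and Benjamini-Hochberg adjustment over all genes at 0.05, tested on simulated data. edgeR 4.0.16 and DESeq2 1.42.0 were run on the recovered reads. Gene coordinates are those of NCBIM37. The genes and lists were chosen with earlier results of these data known. Named beside the 4 genes were, per comparison, the 2 kb bin of smallest adjusted p, the fragments of highest level and the nearest patterns. 1 sequence and the results that rest on it are not reported here. Intervals cover counting error only.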

Additional observations from a re-analysis of the deposited data

Results flagged for a closer look

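The contrast between probe A and probe E had opposite signs in the cell types MFL and mES for all 4 genes. The log2 level from A minus that from E was above 0 in all 3 MFL samples and below 0 in all 3 mES samples, and the difference between the cell types was 1.80 for Mpg, 1.72 for Rhbdf1, 1.48 for Snrnp25 and 1.15 for Il9r. None passed the test of this difference over all genes (limma, adjusted p = 0.153 to 0.209). For Mpg the log2 level from +44/+48 minus that from Hba1/2 was above 0 in all 3 WT samples and below 0 in all 3 DKO samples, a difference of -0.595 that did not pass either (limma, adjusted p = 0.254).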

How the results depend on the processing

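Of 177 alternative counts of genes called, 154 stayed within 1.5 times the main count, without a gene of the main count called in the opposite direction. Of 707 alternative log2 differences 599 kept sign and call. The counts do not show which genes were called. DKO from Hba1/2 outside the domain stayed at 1, but with Il9r lower in place of Rhbdf1 higher. Cx within 500 kb stayed at 2, but with Rhbdf1 lower and Il9r higher. With the total limited to 500 kb the counts were 1 (30 h against 0 h, Hba1/2), 2, both higher (C), 4, all higher (DKO, Hba1/2) and 2 (DKO, +44/+48); with the total outside the domain 1 (E); as deposited 2 (DKO, Hba1/2) and 0 (DKO, HS39.5). With 5 kb left out around viewpoints the counts were 2 (30 h, HS39.5), 1 (Cx) and 0 (DKO, Hba1/2). DESeq2 gave 2 (30 h, HS39.5), 4 (C), 4 (Cx) and 4, all lower (DKO, Hba1/2), and edgeR 4 (C), 4 (Cx) and 3, all lower (DKO, Hba1/2). First technical replicates alone gave 2 (E), fragments by midpoint 2 (DKO, Hba1/2) and the +48 viewpoint alone 2 (DKO, +44/+48).

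The replicate numbers did not pair the samples (correlations of deviations -0.17 to 0.122), and the replicate block gave 2 genes called in place of 1 for DKO from Hba1/2. Leaving out single replicates gave counts of 0 to 1 (30 h, Hba1/2; 1 without MFL replicate 3 of 30 h), 0 to 0 (30 h, HS39.5), 2 to 3 (R1/R2), 3 to 4 (E), 3 to 4 (A), 0 to 0 (C), 2 to 2 (Cx), 1 to 2 (DKO, Hba1/2; 2 without DKO replicate 2), 2 to 3 (DKO, HS39.5) and 4 to 4 (DKO, +44/+48).

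Signs that turned were these. For 30 h against 0 h from Hba1/2: outside the domain, Mpg 0.246, Rhbdf1 0.028 and Il9r 0.222; 5 kb, Mpg 0.114; edgeR, 0.342, 0.217, 0.195 and 0.296 for Mpg, Rhbdf1, Snrnp25 and Il9r; DESeq2, 0.42, 0.284, 0.263 and 0.37; leaving out single replicates, -0.244 to 0.065 for Mpg (above 0 without replicate 1 of 30 h or of 0 h) and -0.27 to 0.007 for Il9r. From HS39.5 Il9r reached -0.058 as deposited, -0.01 to 0.096 without 1 replicate, and -0.003 on MiSeq runs. From E Mpg reached 0.115 outside the domain and from A Il9r -0.017 as deposited. From C Snrnp25 and Il9r were at -0.076 and -0.143 as deposited, -0.732 and -0.858 with edgeR, -0.739 and -0.864 with DESeq2, and -0.304 and -0.098 with first technical replicates; Mpg and Rhbdf1 were at 0.213 and 0.327 within 500 kb; Il9r was at -0.006 with 5 kb and Snrnp25 at -0.025 to 0.439 without 1 replicate (lowest without MFL replicate 3). From Cx Snrnp25 and Il9r were at 0.175 and 0.515 within 500 kb, and Il9r at -0.143 to 0.122 without 1 replicate. For DKO from Hba1/2 Il9r was at 0.038 as deposited, 0.252 within 500 kb, -0.093 to 0.046 without 1 replicate, and 0.014 from Hba-1 alone, and Mpg, Rhbdf1 and Snrnp25 were at -0.297, -0.187 and -0.198 outside the domain, -0.475, -0.366 and -0.368 with edgeR, and -0.502, -0.395 and -0.397 with DESeq2. The cause was not tested.

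For AMKO against WT, Mpg, Rhbdf1, Snrnp25 and Il9r were at 0.716, 0.019 (reversed), -0.017 and -0.254 within 500 kb and 0.093, -0.604, -0.649 and -0.891 outside the domain. Without the α-globin window in the total Mpg, Rhbdf1 and Il9r were at 0.165, -0.534 and -0.812, and Rhbdf1 was at -0.48 from R1 and -0.203 from R2 alone. edgeR and DESeq2 were not run for probe A, where whole reads of 1 library were not recovered, and with 5 kb left out Mpg could not be tested from C. Counts over all genes fell with edgeR and DESeq2 from 154 to 80 and 64 (C), from 186 to 77 and 68 (Cx), and from 111 to 32 and 22 (DKO, Hba1/2), with fewer genes tested.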
